A study of Mus musculus with 7 samples.

Results

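The genes described here encode the machinery that starts and elongates protein chains and the enzymes that load transfer RNAs with amino acids. They were chosen by symbol: initiation factor genes (Eif1 to Eif6), elongation factor genes (Eef1 and Eef2), aminoacyl-tRNA synthetase genes named by an amino acid letter followed by ars, with or without a final digit, Eprs, and the asparagine synthetase gene Asns. The rule found 83 genes, covered by 157 probe sets, among the 8378 genes that the platform annotation names by 1 symbol. In RefSeq 107 protein-coding symbols match it, and the other 24, among them Eif2s1, Eif4g1 and Eef1g, were not used here. The rule also takes in regulators that carry a factor's name, such as the eIF2 kinases and the eIF4E-binding proteins.

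Expression was measured on 7 Affymetrix Mouse430_2 arrays of bone marrow from transplanted mice. Whole, unsorted marrow came from recipients of cells carrying a mock transgene (3 arrays) or an ABCG2 transgene (2 arrays). Marrow of the EZH2-Mt recipient or recipients, described as MDS-like (taken as resembling myelodysplastic syndrome), was sorted on green fluorescent protein (GFP) into a GFP-positive and a GFP-negative fraction (1 array each). The host marrow in these mice was replaced by transplantation in every group, and how many cells of each recipient carried the transgene was not given in the sources used here, nor were the strain, age or sex of the mice, the promoter driving each transgene, or the form of EZH2 meant by Mt. ABCG2 pumps drugs and dyes out of cells, among them blood stem cells, and EZH2 methylates histone H3 as part of a Polycomb complex. Mice are not numbered in the labels, so p-values measure the spread between arrays, which may be technical.

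As background, translation starts when eIF2 brings the initiator tRNA to the small ribosomal subunit, which eIF3 and eIF1A help to load and which the cap-binding eIF4 factors place on the mRNA. The exchange factor eIF2B recharges eIF2, and kinases that sense stress phosphorylate eIF2 and so lower initiation while favouring mRNAs such as that of the transcription factor ATF4. The elongation factors eEF1A and eEF2 then carry in charged tRNAs and move the ribosome along. Mostly separate sets of synthetases charge the tRNAs of the cytosol and of mitochondria. In bone marrow, stem cells keep a low rate of protein synthesis, and red cell precursors tie globin synthesis to heme through the eIF2 kinase HRI.

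The deposited values are log signals, taken as log2, that were centred per probe set so that the median of the 7 arrays is 0. A value is therefore a distance from the middle array, not an amount, and levels of different genes cannot be set against each other. Only probe sets detected on all arrays were kept, so a gene shut off on any array is outside these data. The arrays of ABCG2 marrow lay much farther from the middle than the others, with an SD over 16255 probe sets of 1.06 and 1.13 against 0.33 to 0.54. Their titles also bear a tag that no other title has, and if it marks a batch, batch and transgene cannot be told apart. Control probe sets moved with the groups as well. The median of 24 poly-A spike probe sets was within 0.0039 of 0 on mock arrays, -1.04 and -1.49 on ABCG2 arrays, 1.79 on the GFP-negative and 3.50 on the GFP-positive array. The 3′ minus 5′ difference of the actin control was -0.051 to 0.036 on mock arrays, 0.40 and 0.42 on ABCG2 arrays, 0.14 on the GFP-negative and 0.31 on the GFP-positive array, while that of Gapdh spanned -0.11 to 0.35 over all arrays with ABCG2 at -0.078 and -0.11. The part of these shifts in the differences below was not tested.

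The design first sets ABCG2 marrow against mock marrow. Of the 83 genes, 51 rose and 7 fell in ABCG2 marrow, and 25 did not pass (limma, Benjamini-Hochberg adjusted p under 0.05 over all genes). Among all 8378 genes 35.6% rose and 26.2% fell, so rises made up 61.4% of this set against 35.6% in the background, and falls 8.43% against 26.2%; in either direction it was 69.9% against 61.8%. The median difference, ABCG2 minus mock in log2, was 0.58 for the set and 0.15 for all genes, with quartiles of 0.23 and 0.90 for the set and -0.52 and 0.73 for all genes. Most of the rises were modest: 17 genes rose by at least 1 log2, which is 20.5% of the set beside 16.5% of all genes, and 4 fell by as much, 4.82% beside 14.3%. The ABCG2 and mock arrays did not overlap for 59 genes with ABCG2 above (71.1%, against 44.2% of all genes) and for 10 with ABCG2 below (12%, against 32.7%). Under quantile normalization, which forces the wide ABCG2 arrays onto the distribution of the others, 16 genes rose (19.3%, against 17% of all genes) and 5 fell (6.02%, against 17.3%), with a median of 0.36 beside 0.07. All 58 called genes kept their direction there. The calls that held were the falls of Asns, Eif4e3, Eif4ebp1, Eif5 and Eif3a and the rises of Iars2, Tars2, Lars2, Hars2, Hars, Kars, Eef2k, Eef1d, Eef1akmt1, Eif5a2, Eif2ak4, Eif1ax, Eif1ad, Eif2s3x, Eif2s2 and Eif2b1.

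Cell type markers shifted strongly in the same comparison. All 10 measured neutrophil markers fell, with medians of -4.11 and -6.08 on the ABCG2 arrays against -0.31 to 0.013 on mock arrays, and so did all 6 measured monocyte markers (median difference -4.04). Of the markers of other cells, 2 of 4 for the B lineage, 3 of 4 for stem and progenitor cells, 2 of 4 for plasma cells and 2 of 3 for T and NK cells rose, and the third T and NK marker fell. Of 3 erythroid markers 1 rose and 1 fell (median difference -0.60). Their part in the differences described here was not tested, and in whole marrow fewer cells of a type and less RNA per cell cannot be told apart.

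**Figure D1:**
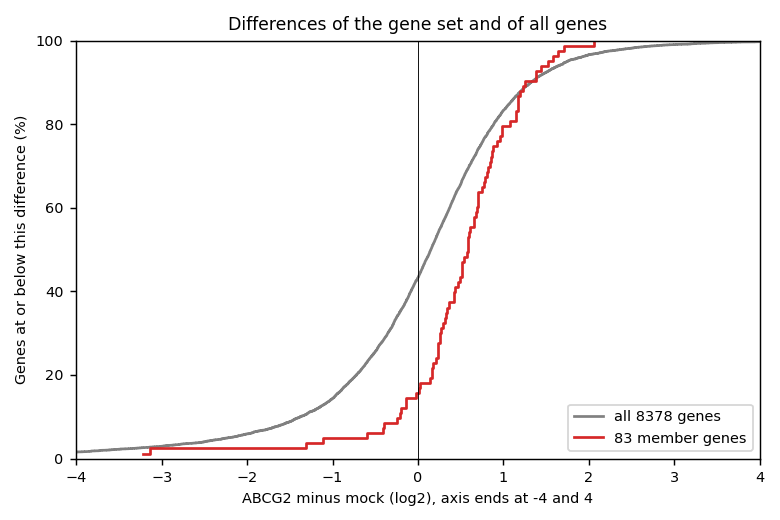
Cumulative distribution of the ABCG2 minus mock difference (log2, horizontal axis) for the 83 genes (red) and all 8378 genes (grey), with the percent of genes at or below each difference on the vertical axis. The red curve climbs steeply between the quartiles of 0.23 and 0.90, while the grey one spreads from -0.52 to 0.73; the horizontal axis ends at -4 and 4.

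Within mock marrow, replicate 1 tended to be low for these genes. It had the lowest of the 3 mock values in 49 of the 83 genes, against 3216 of all 8378, and its median over the set was -0.17, beside -0.032 and -0.029 for replicates 2 and 3. The 2 ABCG2 arrays had medians of 0.42 and 0.45. Without mock replicate 1, 48 genes rose and 5 fell (57.8% and 6.02%, against 31.7% and 23.6% of all genes). Without mock replicate 2, 44 rose and 4 fell (53% and 4.82%, against 29.4% and 21.8%).

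**Figure D2:**
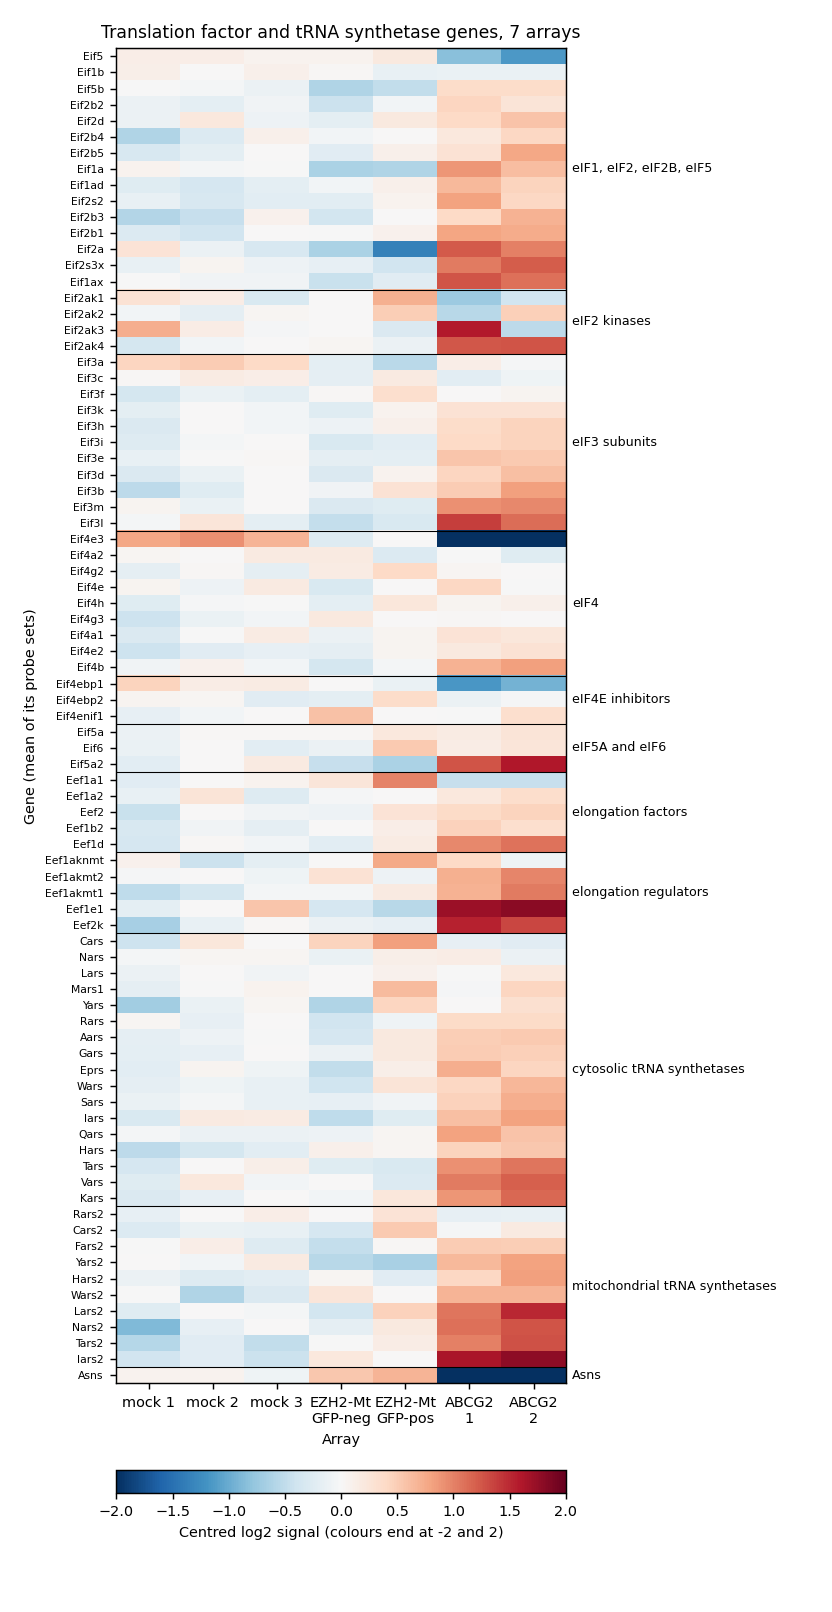
Centred log2 signal of each of the 83 genes (rows, grouped by role) on each of the 7 arrays (columns), with colours from blue (-2) through white (0, the middle array) to red (2). The ABCG2 columns are red in most rows, with Asns and Eif4e3 the darkest blue, and the mock and EZH2-Mt columns are mostly pale.

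Factors that select the start codon and deliver the initiator tRNA mostly rose. Of 15 measured genes, 12 rose, 1 fell and 2 did not pass, with a median of 0.74. Beside this and the role counts below, 35.6% of all 8378 genes rose and 26.2% fell, with a median of 0.15. Eif1ax, one of the genes for eIF1A, stood at -0.013, -0.077 and -0.072 in mock marrow and at 1.26 and 1.10 in ABCG2 marrow, a rise of 1.23 ± 0.13 (SE here and below; adjusted p = 0.000353). Its partner gene Eif1a rose by 0.74 ± 0.14. Eif2s3x, for the gamma subunit of eIF2, rose by 1.19 ± 0.14, from -0.15, 0.056 and -0.11 to 1.04 and 1.21, and Eif2s2, for the beta subunit, by 0.84 ± 0.16. No value of either ABCG2 array came within the mock range for these 4 genes. Eif2a, a factor apart from eIF2 that can also bind initiator tRNA, rose by 1.17 ± 0.20 (adjusted p = 0.00273), from 0.27, -0.11 and -0.32 to 1.22 and 1.01.

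Of the 5 genes of eIF2B, the exchange factor that recycles eIF2, 4 rose. Eif2b1 (0.98 ± 0.16), Eif2b3 (0.86 ± 0.23), Eif2b5 (0.71 ± 0.19) and Eif2b2 (0.47 ± 0.13) rose, and Eif2b4 stood at 0.57 ± 0.22 without passing (adjusted p = 0.0628). Eif2b5, which encodes the catalytic subunit, was at -0.32, -0.19 and 0 in mock and 0.30 and 0.78 in ABCG2 marrow. Its call was lost without mock replicate 1 (0.63, adjusted p = 0.0502), mock replicate 2 (0.70, adjusted p = 0.0543) or ABCG2 replicate 2 (0.46, adjusted p = 0.0814). Eif2b2 lost its call without mock replicate 2 or ABCG2 replicate 1 (adjusted p = 0.0764 and 0.0866), and Eif2b3 without mock replicate 2 or ABCG2 replicate 2 (0.0578 and 0.0789). Against this direction, Eif5, the GTPase-activating partner of eIF2, fell by 1.11 ± 0.14 (adjusted p = 0.00086), from 0.14, 0.13 and 0.075 to -0.84 and -1.14. Its 5 probe sets all pointed down, from -1.70 to -0.35, and 4 of them passed. Eif5b, the GTPase that joins the ribosomal subunits, rose by 0.42 ± 0.12, a call lost without mock replicate 2, mock replicate 3 or either ABCG2 array (adjusted p = 0.0657 to 0.0712).

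The 4 eIF2 kinases parted ways. Eif2ak4 (GCN2, which senses uncharged tRNA) rose by 1.38 ± 0.15 (adjusted p = 0.000458), with -0.35, -0.052 and 0 in mock and 1.24 and 1.26 in ABCG2 marrow. Eif2ak1 (HRI, which senses heme lack in red cell precursors) fell by 0.60 ± 0.22 with an adjusted p of 0.0485. It stood at 0.29, 0.15 and -0.30 in mock and -0.73 and -0.38 in ABCG2 marrow, and the call was lost without mock replicate 1 (adjusted p = 0.122), mock replicate 2 (0.132) or ABCG2 replicate 1 (0.205). The ABCG2 arrays disagreed on the other kinases. Eif2ak3 (PERK, of the endoplasmic reticulum) was at 1.59 and -0.52 on them, against -0.029 to 0.72 in mock marrow, and Eif2ak2 (PKR, which senses viral RNA) at -0.55 and 0.48, against -0.18 to 0.035. These were the 2 genes of the set that differed 2-fold or more between the ABCG2 arrays. Neither passed (adjusted p = 0.723 and 0.941). With 1 ABCG2 array left out, the sign followed the array that remained. Eif2ak3 stood at 1.31 without ABCG2 replicate 2 and -0.80 without ABCG2 replicate 1, and Eif2ak2 at -0.49 and 0.54.

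Subunits of eIF3, the large scaffold of initiation, rose in 8 of 11 cases and fell in 1, with a median of 0.52. Eif3l rose by 1.25 ± 0.18 (adjusted p = 0.0012), from -0.041, 0.24 and -0.20 to 1.38 and 1.12, followed by Eif3m (0.96 ± 0.13), Eif3b (0.92 ± 0.20) and Eif3d (0.66 ± 0.15). Eif3e, Eif3i, Eif3h and Eif3k rose by 0.58 to 0.37. Under quantile normalization all 8 rises missed the threshold (adjusted p = 0.0632 to 0.361). Eif3e also missed it without shared probe sets (0.30, adjusted p = 0.103). Without ABCG2 replicate 2, Eif3i and Eif3h missed the threshold (adjusted p = 0.0592 and 0.0727), and Eif3k did without any 1 array (0.0829 to 0.113). Eif3a, the largest subunit, stood at 0.43, 0.51 and 0.39 in mock and 0.13 and -0.024 in ABCG2 marrow. It fell by 0.39 ± 0.13 (adjusted p = 0.0355), but its 4 probe sets disagreed. The lowest stood at -2.29 ± 0.18 (adjusted p = 0.000123) and the highest at 0.73 ± 0.13 (adjusted p = 0.00352), and the others stood at -0.14 and 0.12 without passing. With the median of the probe sets in place of the mean, the Eif3a difference was -0.037 (adjusted p = 0.828), and the call was also lost without any 1 of the mock arrays (adjusted p = 0.065, 0.115 and 0.0657) or without ABCG2 replicate 2 (0.138). Eif3c (-0.24 ± 0.13, adjusted p = 0.142) had the same kind of split, with probe sets from -1.97 to 0.46.

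Few cap-binding and scanning factors passed: 2 of 9 rose, 1 fell and 6 did not pass, and the median was 0.18, near that of all genes. Eif4b, a cofactor of the helicase eIF4A, rose by 0.77 ± 0.13, and Eif4e2, for a cap-binding repressor, by 0.51 ± 0.14. The Eif4e2 call was lost without mock replicate 2 (adjusted p = 0.0526) or ABCG2 replicate 2 (0.46). Its 4 probe sets ran from -0.067 to 1.40, and with their median the difference was 0.36 (adjusted p = 0.0719). Under quantile normalization both Eif4b and Eif4e2 missed the threshold (adjusted p = 0.164 and 0.0736). The cap-binding protein gene Eif4e stood at 0.059, -0.11 and 0.18 in mock and 0.42 and -0.0068 in ABCG2 marrow (0.16 ± 0.18, adjusted p = 0.45). The 4 probe sets of Eif4e ran from -0.77 to 0.86, and only the highest passed. The helicase gene Eif4a1 stood at -0.28, -0.002 and 0.16 in mock and 0.27 and 0.22 in ABCG2 marrow (0.29 ± 0.17, adjusted p = 0.17). Its paralog Eif4a2 stood at 0.044, 0 and 0.19 against -0.0011 and -0.25 (-0.20 ± 0.14, adjusted p = 0.259). Neither helicase gene passed, nor did Eif4g2 (0.14), Eif4h (0.18) and Eif4g3 (0.21). Missing the threshold on so few arrays does not show that these genes were equal in the groups.

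Set against this was the fall of the paralog Eif4e3, which encodes an atypical cap-binding protein. It stood at 0.77, 0.91 and 0.68 in mock marrow and at -2.26 and -2.44 in ABCG2 marrow, so it fell by 3.13 ± 0.14 log2 or 8.78-fold (adjusted p = 1.61e-05). The EZH2-Mt fractions lay between them, at -0.25 for GFP-negative and 0 for GFP-positive cells. Eif4ebp1, for the eIF4E-binding repressor that mTORC1 switches off, fell by 1.31 ± 0.15 (adjusted p = 0.000592), from 0.44, 0.16 and 0.16 to -1.16 and -0.95. Both of its probe sets passed, at -1.17 and -1.44. Its paralog Eif4ebp2 was at 0.054, 0.035 and -0.23 in mock and -0.12 and -0.029 in ABCG2 marrow, with overlapping groups (-0.028 ± 0.15, adjusted p = 0.877), and Eif4enif1, for the eIF4E transporter, was at -0.16, -0.061 and 0.014 against -0.0038 and 0.33 (0.23 ± 0.15, not passing). The 2 probe sets of Eif4ebp2 went in opposite directions, at -0.51 ± 0.14, which passed, and 0.45 ± 0.18, which did not.

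Both genes of eIF5A, which helps ribosomes past difficult peptide bonds and carries the modified residue hypusine, had ABCG2 arrays above all mock arrays, and only Eif5a2 passed; the difference between them was not tested. The tissue-restricted copy Eif5a2 rose by 1.44 ± 0.18 (adjusted p = 0.000714), from -0.20, 0 and 0.18 to 1.26 and 1.61. The common copy Eif5a stood at -0.12, 0.027 and 0.019 in mock and 0.16 and 0.26 in ABCG2 marrow (0.23 ± 0.13, adjusted p = 0.16). The 2 probe sets of Eif5a also parted, at 0.59 ± 0.14, which passed, and -0.12 ± 0.14, which did not. Eif6, which keeps the large ribosomal subunit apart until it is ready, was at -0.14, 0 and -0.22 in mock and 0.15 and 0.24 in ABCG2 marrow (0.31 ± 0.13, adjusted p = 0.0839).

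Of 5 elongation factor genes 3 rose and 1 fell, with a median of 0.59. Eef1d and Eef1b2, subunits of the complex that recharges eEF1A, rose by 1.14 ± 0.16 and 0.59 ± 0.14. Eef1d went from -0.33, 0.025 and -0.056 in mock to 0.96 and 1.08 in ABCG2 marrow. The translocase gene Eef2 rose by 0.59 ± 0.17 (adjusted p = 0.023), from -0.44, 0 and -0.071 to 0.38 and 0.45, and missed the threshold when either ABCG2 array was left out (adjusted p = 0.0543 and 0.0794). The gene of eEF1A itself went the other way: Eef1a1 stood at -0.23, 0 and 0.077 in mock and -0.46 on both ABCG2 arrays, a fall of 0.41 ± 0.14 with an adjusted p of 0.0445. That call did not survive leaving out mock replicate 2 (adjusted p = 0.127), mock replicate 3 (0.121) or either ABCG2 array (0.108 and 0.11).

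Genes grouped as regulators and modifiers of elongation, which take in Eef1e1 by name only, rose in 4 of 5 cases, with a median of 1.17. Eef2k, for the kinase that phosphorylates and inhibits eEF2, rose by 1.70 ± 0.22 (3.26-fold, adjusted p = 0.000908), from -0.67, -0.15 and 0.029 to 1.54 and 1.34. The lysine methyltransferase genes of eEF1A, Eef1akmt1 (1.17 ± 0.19) and Eef1akmt2 (0.88 ± 0.14), rose too. Eef1akmt2 went from -0.027, 0 and -0.081 to 0.71 and 0.97. Eef1aknmt was at 0.088, -0.44 and -0.19 in mock and 0.40 and -0.092 in ABCG2 marrow, with overlapping groups (0.33 ± 0.22). Eef1e1, which despite its name encodes a scaffold of the multisynthetase complex, rose by 1.64 ± 0.23 (adjusted p = 0.00115), from -0.20, 0 and 0.55 in mock to 1.72 and 1.80 in ABCG2 marrow.

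**Figure D3:**
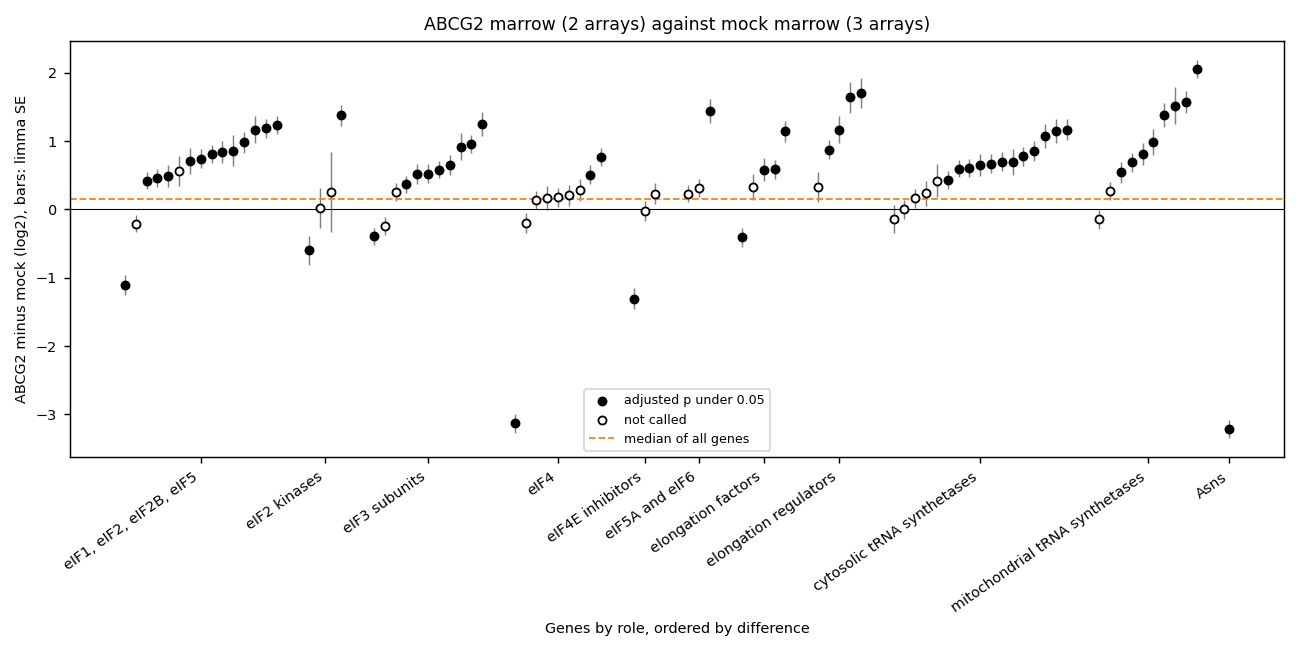
ABCG2 minus mock difference in log2 (vertical axis) of each gene, grouped by role along the horizontal axis; bars are limma standard errors from 2 ABCG2 and 3 mock arrays, filled points passed the adjusted p of 0.05, and the dashed line is the median of all genes (0.15). Synthetases sit almost wholly above the line, while Eif4e3 (-3.13) and Asns (-3.22) stand far below it.

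Synthetase genes were the largest block with no fall: 20 of 27 rose, 7 did not pass, and the median was 0.69. Among 17 synthetases classed by symbol as cytosolic 12 rose, with a median of 0.65. Enzymes that also serve mitochondria were not set apart from these. The largest differences were those of Kars (1.17 ± 0.16), Vars (1.15 ± 0.17) and Tars (1.07 ± 0.18), for lysine, valine and threonine. Kars stood at -0.29, -0.16 and 0 in mock and 0.89 and 1.15 in ABCG2 marrow. Eprs, the joined glutamate and proline enzyme, rose by 0.65 ± 0.16, from -0.21, 0.051 and -0.079 to 0.72 and 0.42, Gars (glycine) by 0.60 ± 0.13, from -0.19, -0.16 and 0 to 0.50 and 0.47, and Wars (tryptophan) by 0.67 ± 0.14, from -0.18, -0.081 and -0.15 to 0.41 and 0.66. Eprs lost its call without ABCG2 replicate 1 (0.50, adjusted p = 0.0516) and Iars (0.70 ± 0.19) without ABCG2 replicate 2 (0.60, adjusted p = 0.0814). Yars, the tyrosine enzyme, stood at -0.70, -0.13 and 0.042 in mock and 0 and 0.31 in ABCG2 marrow, with overlapping groups (0.42 ± 0.24). It did not pass, nor did Mars1 (0.23), Lars (0.16), Nars (0.0058) and Cars (-0.14). Rars (0.43 ± 0.13) lost its call without mock replicate 2 or 3 (adjusted p = 0.1 and 0.0585). The Rars call was also lost without ABCG2 replicate 1 (0.43) or 2 (0.42). Iars lost its call without shared probe sets (0.14, adjusted p = 0.625). Several of these enzymes sit together in the multisynthetase complex. Of the 8 genes of the set counted in it, Eef1e1 among them, 6 rose, and Lars and Mars1 did not pass. The complex scaffolds Aimp1 and Aimp2 fall outside the symbol rule and are given below.

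Mitochondrial synthetases rose in 8 of 10 cases, with a median of 0.90. Among the 8, Fars2 (0.54 ± 0.16) had probe sets at 0.074 and 1.01. Its call was lost without shared probe sets (0.074, adjusted p = 0.777) or without mock replicate 3 (0.43, adjusted p = 0.0575). The Fars2 call was also lost without ABCG2 replicate 1 (0.53) or 2 (0.56). Iars2, the isoleucine enzyme, had the largest rise of the whole set, 2.06 ± 0.14 log2 or 4.16-fold (adjusted p = 6.09e-05), from -0.38, -0.22 and -0.42 in mock to 1.63 and 1.80 in ABCG2 marrow. Tars2 rose by 1.58 ± 0.16, from -0.57, -0.23 and -0.49 to 1.01 and 1.28. Nars2 rose by 1.52 ± 0.27, from -0.88, -0.16 and 0 to 1.10 and 1.25, and Lars2 by 1.39 ± 0.17, from -0.24, 0 and -0.047 to 1.07 and 1.5. The ABCG2 arrays lay above all mock arrays for each of these 4 genes. Cars2, at -0.28, -0.14 and -0.15 in mock and -0.021 and 0.19 in ABCG2 marrow (0.27, adjusted p = 0.128), and Rars2 (-0.14, adjusted p = 0.408) did not pass.

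For 9 amino acids a mitochondrial and a cytosolic gene could be paired by symbol, and the mitochondrial gene had the larger difference in 7. Phenylalanine was left out, since the cytosolic enzyme genes Farsa and Farsb fall outside the symbol rule. Fars2 stood at 0.54 ± 0.16, Farsa at 0.25 ± 0.16 without passing and Farsb at 1.51 ± 0.17. Subtracting the cytosolic from the mitochondrial value within each array gave, for Nars2 and Nars, -0.85, -0.19 and -0.042 in mock and 0.94 and 1.37 in ABCG2 marrow. For Iars2 and Iars the values were -0.071, -0.40 and -0.59 in mock and 1.03 and 0.98 in ABCG2 marrow, and for Lars2 and Lars -0.12, -0.011 and 0.017 against 1.08 and 1.28. The ABCG2 arrays lay above all mock arrays in 5 pairs, the others being Tars and, by a narrow margin, Cars (0.14 against 0.13). They lay below in the arginine pair (-0.54 on both ABCG2 arrays, against -0.21 to 0.17), and overlapped in 3. These differences between paired genes were not tested.

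**Figure D4:**
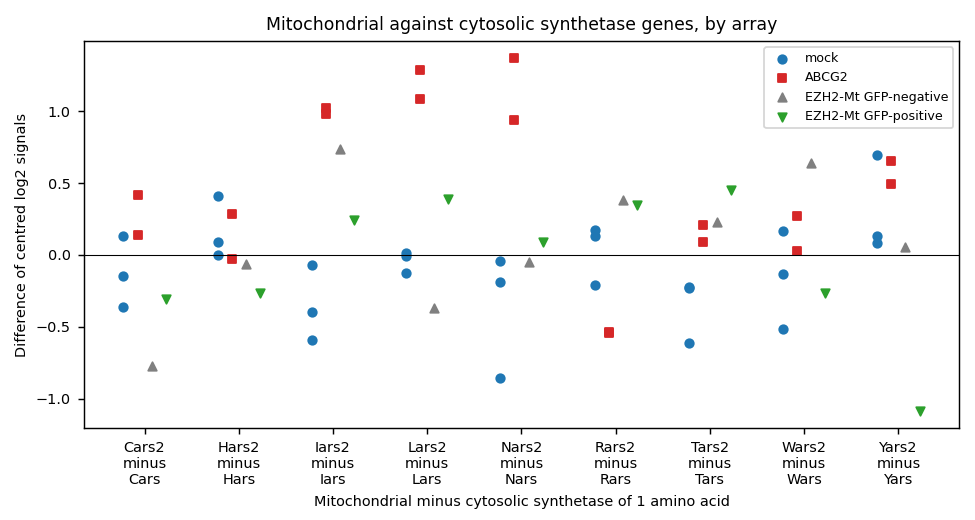
Mitochondrial minus cytosolic centred log2 signal within each array (vertical axis) for the 9 amino acids with both genes paired by symbol (horizontal axis). Each point is 1 array, coloured and shaped by group. The ABCG2 squares stand well clear above the mock circles for isoleucine, leucine and asparagine, and below them for arginine.

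Asns, which makes asparagine from aspartate and glutamine and is a textbook target of ATF4, fell more than any other gene of the set. It stood at 0.064, 0.078 and -0.084 in mock marrow and at -3.11 and -3.28 in ABCG2 marrow, so it fell by 3.22 ± 0.13 log2 or 9.29-fold (adjusted p = 1.3e-05). Both probe sets passed, at -2.95 and -3.49. Of 25 measured members of a list of the ATF4 pathway, 12 rose and 4 fell, with a median of 0.36. Over all genes 35.6% rose and 26.2% fell, with a median of 0.15. Ddit4, an mTORC1 inhibitor, rose by 3.08 ± 0.40, the amino acid transporter gene Slc7a5 by 2.02 ± 0.18 and the serine synthesis gene Phgdh by 1.55 ± 0.13, while the transcription factor gene Cebpb fell by 1.75 ± 0.44 and the phosphatase cofactor gene Ppp1r15b by 0.93 ± 0.15.

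ATF4 acts at Asns and at several synthetase genes through the C/EBP-ATF response element, whose core was searched here as TGATGNAA on both strands of the 250 bases before the start site, since genes that hold it moved in opposite directions. RefSeq promoters (GRCm38.p6) were found for 64 of the 83 genes by gene ID. The word was present in 6 of the 64 (9.38%), against 2.37% of 6923 genes on the arrays and 3.91% of all 27025 genes in the promoter table. Of the 6, Aars, Gars, Tars, Eif2s3x and Eef2k rose, by 0.60, 0.60, 1.07, 1.19 and 1.70, and Asns fell. The word was thus in 12.8% of the 39 genes with a promoter that rose, 20% of the 5 that fell (Asns alone) and 0 of the 20 that did not pass. It was picked as the element of Asns and synthetase genes, and a link between the word and the differences was not tested. The E-box CACGTG, bound by Myc and related factors, was present in 13 of the 64 (20.3%), against 10.6% of the array genes and 6.86% of the table; 6 of the 13 rose, 7 did not pass, and 0 fell. That is 15.4% of the 39 genes with a promoter that rose, and 35% of the 20 that did not pass. Aars and Eef2k held both words, and neither word contains the other. A match is a string of letters, not a bound site. The 120 bases before the start of each of the 6 genes with TGATGNAA are given 5′ to 3′ on the gene's strand, with the match in capitals. It reads TGATGAAA on the gene's own strand in Asns, beginning 23 bases before the start, and lies on the opposite strand in the other 5, as TGATGCAA in Aars and Tars and TGATGAAA in Gars, Eif2s3x and Eef2k.
Asns, chr6:7693210-7693329, minus strand: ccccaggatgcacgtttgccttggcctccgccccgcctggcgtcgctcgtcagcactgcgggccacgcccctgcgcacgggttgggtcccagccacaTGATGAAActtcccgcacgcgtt
Aars, chr8:111033722-111033841, plus strand: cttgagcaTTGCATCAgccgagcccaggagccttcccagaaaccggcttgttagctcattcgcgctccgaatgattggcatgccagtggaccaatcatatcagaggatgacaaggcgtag
Gars, chr6:55037881-55038000, plus strand: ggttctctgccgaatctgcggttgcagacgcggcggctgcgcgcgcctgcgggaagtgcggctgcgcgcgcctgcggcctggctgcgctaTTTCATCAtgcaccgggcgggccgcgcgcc
Tars, chr15:11399659-11399778, minus strand: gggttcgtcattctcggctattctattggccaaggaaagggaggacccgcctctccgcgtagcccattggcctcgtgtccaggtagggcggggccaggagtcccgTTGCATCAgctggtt
Eif2s3x, chrX:94212652-94212771, minus strand: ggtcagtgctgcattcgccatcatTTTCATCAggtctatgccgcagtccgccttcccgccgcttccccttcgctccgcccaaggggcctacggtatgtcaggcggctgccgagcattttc
Eef2k, chr7:120851069-120851188, plus strand: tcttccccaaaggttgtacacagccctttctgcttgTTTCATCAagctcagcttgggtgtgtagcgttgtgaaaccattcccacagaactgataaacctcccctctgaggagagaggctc

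Genes that work beside these factors but fall outside the symbol rule were followed in lists. Their counts stand beside 35.6% of all genes that rose and 26.2% that fell (median 0.15). Of 12 measured mitochondrial translation factors 11 rose and 0 fell, with a median of 0.80. They were led by Mtfmt (1.53 ± 0.17), which formylates the mitochondrial initiator tRNA, and Guf1 (1.32 ± 0.19), and the remaining gene was at 0.25. A mixed list of further synthetase genes, their partners and other genes, such as Dohh and Xpot, rose in 10 of 14 cases (median 0.63). Its rises included Farsb (1.51 ± 0.17), a subunit of the phenylalanine enzyme, and the complex scaffolds Aimp2 (1.10 ± 0.25) and Aimp1 (0.84 ± 0.13). In it 0 genes passed as lower, though Trnt1 stood at -0.39 ± 0.14 (adjusted p = 0.0517) with ABCG2 below all mock arrays. Xpot is also counted in the ATF4 list. Other initiation, termination and recycling factors rose in 14 of 23 cases and fell in 3 (median 0.56), with Paip2b (2.17 ± 0.20), a repressor of poly-A-binding protein, and the RNA-binding protein gene Msi2 (2.14 ± 0.14) highest. The helicase gene Ddx6 (-0.76 ± 0.13) and Larp4b (-0.67 ± 0.15) were among those that fell. Of 22 genes of mTORC1 and the translation kinases, 10 rose and 6 fell (median 0.29), against 35.6% and 26.2% of all genes. The mTORC1 inhibitor Deptor (2.22 ± 0.14) and the Rheb relative Rhebl1 (2.49 ± 0.22) rose. The eIF4E kinase gene Mknk1 (-1.43 ± 0.15) and Lamtor4 (-1.18 ± 0.16), of the lysosomal anchor of mTORC1, fell, as did Lamtor1, Lamtor2 and Lamtor3, while Lamtor5 stood at 0.098 without passing.

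The sorted EZH2-Mt fractions, with 1 array each, allow no test. The set was on the whole higher in GFP-positive than in GFP-negative cells: 61 of 83 genes (73.5%) were, against 51% of all genes, with a median difference of 0.22 log2 beside 0.0097. The differences were small. Yars was the only gene of the set at 2-fold or more in either direction, at -0.60 in GFP-negative and 0.44 in GFP-positive cells (3 genes were under quantile normalization). That is 1.2% of the set, against 3.1% of all genes, of which 1.77% were higher and 1.34% lower in GFP-positive cells. At 1.5-fold or more, 10 genes of the set were higher (12%, against 7.88% of all genes) and 2 lower (2.41%, against 6.65%). The next largest differences were in Cars2 (-0.33 and 0.52), Lars2 (-0.37 and 0.47), Eef1a1 (0.24 and 0.997) and Eef1aknmt (0 and 0.75), each given as GFP-negative and GFP-positive. On the other side were Eif2a (-0.64 and -1.35), Eif4enif1 (0.59 and 0), Eif4a2 (0.19 and -0.27), Eef1akmt2 (0.29 and -0.098) and Eif3a (-0.20 and -0.54). Between mock arrays 0 of the 83 genes differed 2-fold, against 0.358% to 1.85% of all genes. The median absolute difference between mock arrays was 0.13 to 0.17 over the set and 0.15 to 0.20 over all genes, and between the fractions it was 0.27 and 0.26.

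Of the cytosolic synthetases 14 of 17 were higher in GFP-positive cells (median difference 0.27), and of the mitochondrial ones 6 of 10 (0.21). All 5 eIF2B genes were higher (0.33). Eif2ak1, the heme-sensing kinase, was at 0 in GFP-negative and 0.71 in GFP-positive cells. Eif2ak2 went the same way, at 0 and 0.50, while Eif2ak3 was at 0 and -0.30 and Eif2ak4 at 0.035 and -0.11. Markers of several cell types were also higher in the GFP-positive fraction. That held for 10 of 10 neutrophil markers (median difference 0.84), 4 of 4 of the B lineage (1.12), 4 of 4 of plasma cells (1.2) and 3 of 3 erythroid markers (1.06), but for 1 of 3 of T and NK cells (-1.08). Their part in the shift was not tested.

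Values of other factors in the fractions are given as GFP-negative and then GFP-positive. Among initiation factors Eif5 was at 0.067 and 0.19, Eif2b5 at -0.23 and 0.11, Eif4e at -0.30 and 0.0031, Eif4a1 at -0.12 and 0.055, Eif5a at 0.017 and 0.20 and Eif6 at -0.12 and 0.52. The eIF4E repressors went in different directions, Eif4ebp1 from 0 to -0.14 and Eif4ebp2 from -0.20 to 0.37. In elongation, Eef2 was at -0.097 and 0.27, its kinase Eef2k at -0.11 and -0.17 and the scaffold gene Eef1e1 at -0.33 and -0.55. Cytosolic synthetases were higher in GFP-positive cells in each case followed: Gars at -0.11 and 0.19, Eprs at -0.49 and 0.12, Wars at -0.41 and 0.26 and Kars at -0.052 and 0.22. Of the mitochondrial enzymes, Nars2 (-0.18 and 0.20) and Tars2 (-0.0081 and 0.15) were higher there and Iars2 (0.22 and 0) lower.

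Set against mock marrow, both fractions lay above all 3 mock arrays for 12 genes (14.5%, against 27.4% of all genes) and below all 3 for 14 (16.9%, against 20.6%). In 0 genes of the set were both fractions 2-fold or more from the mock mean, against 2.4% of all genes. Without mock replicate 3, 23 genes lay above the remaining mock arrays, a count not made over all genes. Asns was above, at 0.54 and 0.68 (GFP-negative, then GFP-positive) against at most 0.078 in mock marrow. Eef1a1 (0.24 and 0.997) and Cars (0.44 and 0.82) were above as well, with highest mock values of 0.077 and 0.23. Of the genes below, 5 belong to start codon selection and 4 to eIF3. Eif2a (-0.64 and -1.35, lowest mock value -0.32), Eif1a (-0.63 and -0.60, lowest mock value -0.036), Eif5b (-0.60 and -0.49, lowest mock value -0.12) and Eif5a2 (-0.47 and -0.64, lowest mock value -0.20) were among them. Cell type markers left the mock range as well: both fractions lay above all mock arrays for 9 of 10 neutrophil markers and 2 of 3 of T and NK cells, and below for 5 of 6 monocyte markers. The medians of these lists from the mock mean, GFP-negative then GFP-positive, were 0.34 and 1.26, 2.23 and 1.15, and -1.42 and -1.20. Their part in the differences was not tested. The fractions were sorted while mock marrow was not, and the comparison shares its mock arrays with that of ABCG2 marrow.

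**Figure D5:**
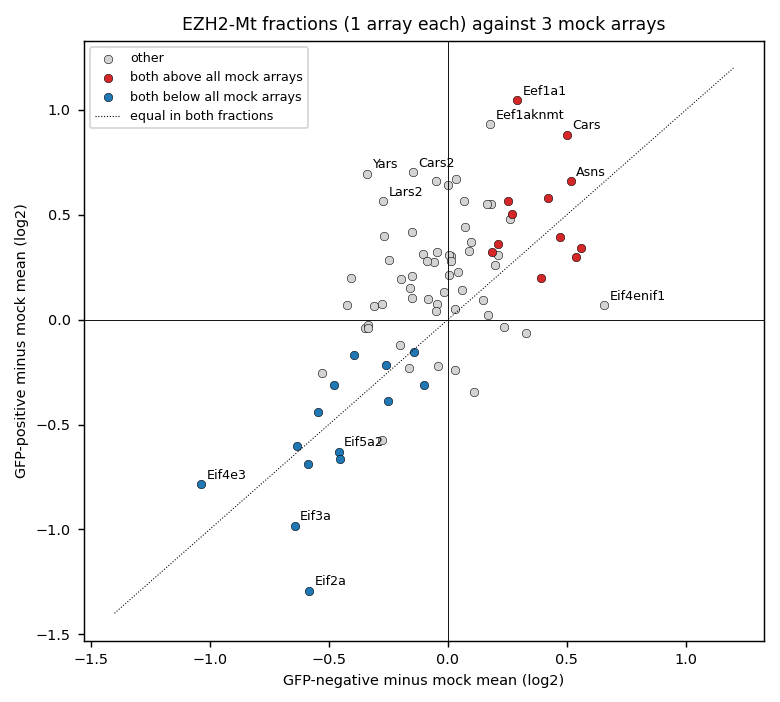
Difference from the mean of the 3 mock arrays in log2, for the GFP-negative (horizontal axis) and GFP-positive (vertical axis) EZH2-Mt array; each point is 1 of the 83 genes, red where both fractions exceed all mock arrays (12), blue where both are under all of them (14), and the dotted line marks equal values. Most points lie above the dotted line, and Eif2a, at -0.58 and -1.29, is the lowest.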

How the data were processed

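The authors deposited, per sample and in the value table of the series, log2 signals (the base is not stated and was taken as 2) centred per probe set on the median of the 7 arrays. Per the file headers, probe sets were kept at a raw signal of 3 to 120534.25 and a Present or Marginal flag in 100% of samples. The submitters' processing notes list MAS5 without a version, and the scaling between arrays is not given in the sources used here. The 54 control probe sets and the probe sets with several symbols (483, of which 7 hold a symbol that fits the rule) or none (1543) were set aside. Each gene was the mean of its probe sets. Mock and ABCG2 arrays were fitted with limma 3.58.1 in R 4.3.3 (lmFit, eBayes, two-sided, no covariate), with Benjamini-Hochberg adjustment over 8378 genes; the script was tested on simulated data. Comparisons with 1 array a group have no test. The number of arrays limits the precision.

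The genes, roles, lists and alternatives were chosen with earlier results of these data known. Every gene of the set could be named; values on each array are given for the 8 that rose and the 8 that fell most (7 fell), the 5 highest and lowest between the EZH2-Mt fractions, and a fixed list of known factors. Of the other lists, mainly the 2 largest called changes a direction are named. Phgdh, Aimp1, Farsa, Dohh, Xpot, Trnt1, Lamtor1, Lamtor2, Lamtor3 and Lamtor5 were chosen after their values were seen. The promoter words were also chosen after the data were seen.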

Additional observations from a re-analysis of the deposited data

How the results depend on the processing

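Subtracting array medians, the median of probe sets, leaving out shared probe sets and array weights kept the number of called genes at 54 to 58 of up to 83, and fitting all 7 arrays as 4 groups gave the same 58. In these fits 56.8% to 61.4% of the set rose, against 34.4% to 35.6% of all genes. Falls were 6.02% to 9.88%, against 25.6% to 26.5%. Quantile normalization left 21 called, 16 higher, with a median of 0.36, and 3 genes 2-fold apart between the EZH2-Mt fractions. Leaving out 1 mock array gave 48 to 53 called genes. Of the set 53% to 57.8% rose, against 29.4% to 31.7% of all genes, and 4.82% to 6.02% fell, against 21.8% to 23.8%. The medians were 0.53 to 0.62. Leaving out ABCG2 replicate 1 or 2 leaves 1 array in that group, and the medians were 0.58 and 0.56. Asking for 1 log2 as well left 21, 17 higher and 4 lower, and asking that every probe set pass left 3 lower. At 1.5-fold, 12 genes differed between the fractions, and 0 were 2-fold from the mock mean in both. Without mock replicate 3, 23 genes lay above the mock range (15 without either other replicate), counts not made over all genes. With the replicate number as a block, 46 rose and 5 fell (55.4% and 6.02%, against 30.7% and 23.7% of all genes). In that fit 49 of the 58 calls were kept, with a median of 0.62. Eef1a1 (adjusted p = 0.138), Eif3a (0.0896) and Eprs (0.0504) lost theirs, and Yars gained a call (0.57, adjusted p = 0.0423). Deviations of same-numbered arrays correlated at 0.067 and -0.061. The deviations of 2 ABCG2 arrays from their mean mirror each other, so these values cannot show whether the numbers pair arrays. Genes that did not pass changed sign: Eif2ak2 without mock replicate 2 (-0.03) or ABCG2 replicate 2 (-0.49), Eif2ak3 under quantile normalization (-0.15) or without ABCG2 replicate 1 (-0.80), Eif4e under quantile normalization (-0.009) or without ABCG2 replicate 1 (-0.049), and Eif4ebp2 without mock replicate 1 (0.023), mock replicate 2 (0.013) or ABCG2 replicate 1 (0.018). With 1 array left out these 4 genes spanned -0.49 to 0.54, -0.80 to 1.31, -0.049 to 0.37 and -0.12 to 0.023, in that order. The cause was not tested. Signal over background is unknown in centred values, and a gene undetected on any array is not analysed here.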

Other observations

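Probe sets of 1 gene did not always give 1 answer. Of 42 genes of the set with several probe sets, 30 had all of them in the same direction between ABCG2 and mock marrow, 9 had probe sets that differed by 1 log2 or more, and 2, Eif3a and Eif3c, had probe sets that passed in opposite directions (limma, adjusted over all probe sets). In Eif3c, for a core subunit of eIF3, 1 probe set stood at -1.97 ± 0.14 (adjusted p = 9.32e-05) and another at 0.46 ± 0.14 (adjusted p = 0.0256). In Qars, for the glutamine enzyme, 2 probe sets were higher by 1.16 ± 0.14 and 1.59 ± 0.14 and the third stood at -0.41 without passing (adjusted p = 0.136). In Eif1ax, 1 probe set stood at 0.23 ± 0.13 (adjusted p = 0.18) beside 1.52 ± 0.16 and 1.95 ± 0.22 for the others. Cars2, Eif4a1, Eif4e, Eif4ebp2, Eif4g2 and Eif5a did not pass as genes, but 1 probe set of each did, with another in the opposite direction. Which transcripts each probe set reads was not given in the sources used here.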
